A study of Mus musculus with 16 samples.

Results

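The genes described here encode the mitochondrial respiratory chain and were chosen by a rule on symbols, with earlier results of these data known. It takes all gene symbols of the array platform that begin with Nduf, Uqcr, Cox4, Cox5, Cox6, Cox7 or Cox8, without Cox8b, together with Sdha, Sdhb, Sdhc and Sdhd. The rule matched 71 of the 20863 genes measured. One of them, listed as Cox4nb, is now named Emc8 and is no respiratory chain gene, so it was left out and 70 were analysed. Of the 70, 68 are described as a group and 2, the muscle-type isoforms Cox6a2 and Cox7a1, are shown apart. Cox8b, a muscle-type isoform that the rule does not take, is shown beside them.

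RNA came from whole lungs of C57BL/6 mice aged 9 to 12 weeks, and 0.2 ug of it per sample was hybridised to 16 Agilent mouse arrays with a single dye. Every animal received a locked nucleic acid oligonucleotide (LNA) into the trachea at 5 mg/kg, given 4 days before, 2 days before and 4 days after the injury step: LNA-miR-199a-5p, which is directed against the microRNA miR-199a-5p and is called the inhibitor here, or LNA-control. The injury step was bleomycin at 1 unit/kg, a DNA-damaging drug used to bring on lung fibrosis, or its vehicle PBS. Of the PBS lungs 3 arrays had LNA-control and 3 the inhibitor, and of the bleomycin lungs 5 had LNA-control and 5 the inhibitor; no group went without an LNA, and the labels give neither the day of collection nor whether the replicates are separate animals, so the p-values measure the spread between these samples.

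The respiratory chain sits in the inner membrane of mitochondria. Complex I takes electrons from NADH and complex II takes them from succinate, complex III passes them on to cytochrome c, and complex IV hands them to oxygen, while complexes I, III and IV pump the protons that drive ATP synthase. Most subunits are encoded in the nucleus and are made in nearly all cells, but some subunits of complex IV exist as isoforms of heart and skeletal muscle, brown fat, lung or testis. The oligonucleotide is directed at this mature microRNA, as RefSeq gives it for mouse build GRCm38.p6 at chr1:162217844-162217866 on the plus strand (Mir199a-2) and chr9:21496537-21496559 on the minus strand (Mir199a-1), with the seed, bases 2 to 8 from the 5′ end, in capitals.
mmu-miR-199a-5p: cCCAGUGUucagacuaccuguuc
It is shown because every comparison of the inhibitor with LNA-control is about this sequence. No target site was searched for in the respiratory chain genes.

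All values are log2 intensities as deposited, changes are log2 differences ± standard error (SE) from 1 limma model of the 4 groups, and a gene is called where its Benjamini-Hochberg adjusted p over all 20863 genes is under 0.05. All 11 markers fixed for whole lung, such as Sftpc, Ager and Pecam1, were read, and their mean lay between 13.61 and 13.91 on every array. Single lung markers did move. For the inhibitor in bleomycin lungs 4 of the 11 were called higher and 1 lower, with changes from -0.62 to 0.70, where 24.9% of all genes were called. In each of the 2 bleomycin comparisons 2 of the 11 were called. Markers of other tissues differed between arrays as well. The thymocyte gene Rag1 read 10.03 and 10.88 on 2 arrays of bleomycin with LNA-control (replicates 1 and 4) and 5.43 to 6.10 on the other 14. The brown fat gene Ucp1 read 5.57 on 1 array of PBS with LNA-control, 5.56 on 1 PBS array with the inhibitor and 7.65 on 1 of bleomycin with LNA-control, against at least 10.33 on the other 13. The 22 heart muscle markers averaged 10.38 to 10.42 and 10.36 to 10.82 in the PBS groups, 10.11 to 10.57 in bleomycin with LNA-control and 10.65 to 11.21 in bleomycin with LNA-miR-199a-5p. Replicate 3 of PBS with the inhibitor stood furthest apart: the squamous keratin Krt13 read 5.59 there and at least 11.38 on the other 15 arrays, the 14 skeletal muscle markers averaged 6.39 (at least 8.48 elsewhere) and the 8 squamous markers 6.68 (at least 9.44). It is 1 of only 3 arrays of its group. Without it the counts of members called were 3 after bleomycin with LNA-control, 7 after bleomycin with the inhibitor, 15 and 0 for the inhibitor in bleomycin and PBS lungs, and 5 for the difference between the bleomycin effects, against 3, 9, 14, 0 and 6 with all arrays. The shares of all genes called were 18%, 5.68%, 26.1%, 0.58% and 5.01% without that array. With all arrays they were 17.5%, 13.4%, 24.9%, 0.0479% and 7.01%. In RNA from a whole lung, fewer cells of a type and less RNA per cell cannot be told apart.

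The probes of the respiratory chain genes gave strong and steady signal. Of the 68, 66 lay above the median signal over all genes (8.47), and 50 lay among the highest 10%. The median SD between arrays of a group was 0.109 for the members and 0.145 for all genes. The exceptions in signal were Cox7b2 (5.38) and Cox8c (5.27), isoforms known from testis, which stood near the low end of the scale. Probes differ in signal for reasons other than the amount of RNA, so no member's level is set against that of another.

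**Figure D1:**
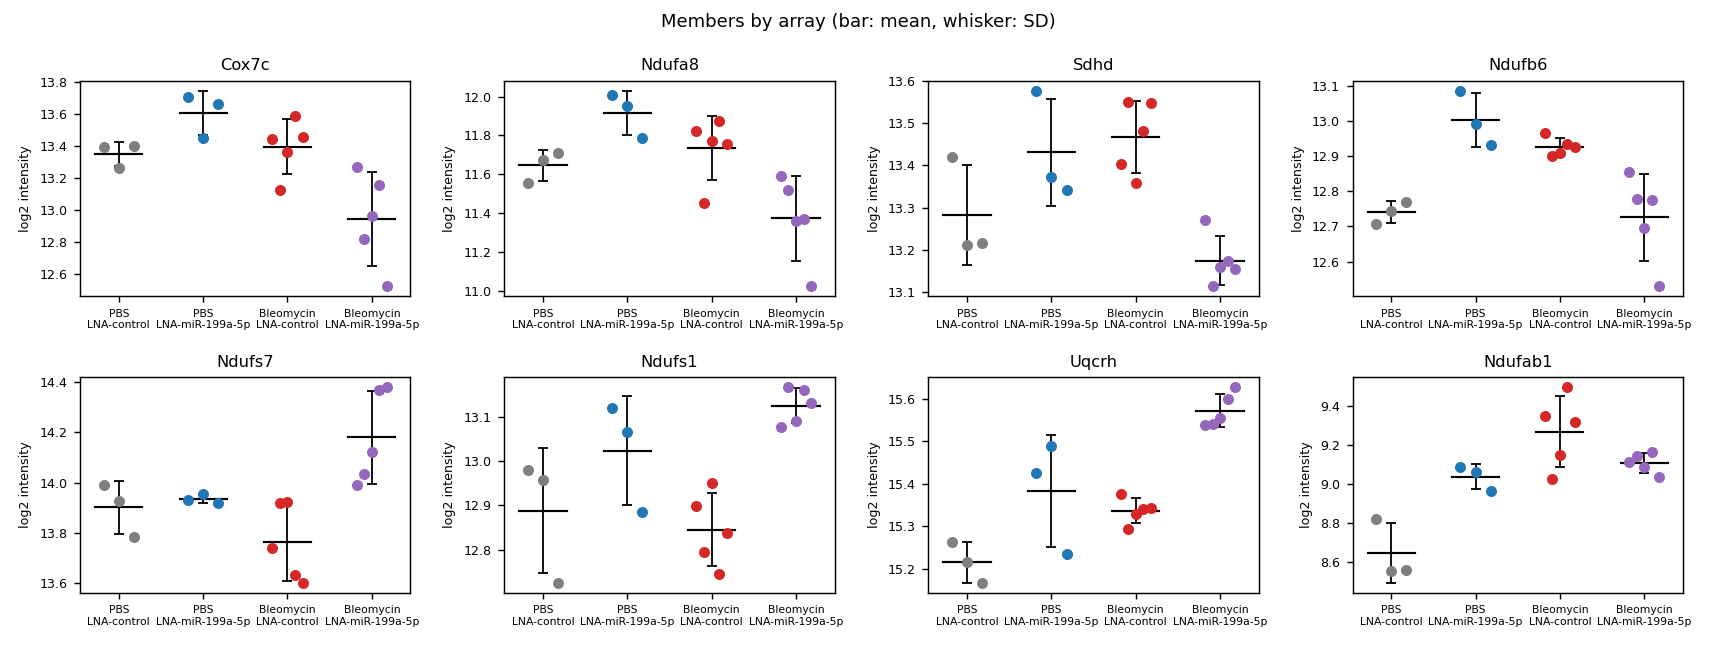
Log2 intensity (y axis, log2 scale) of single respiratory chain genes on each of the 16 arrays, by group; each point is 1 array, the bar is the group mean and the whiskers are 1 SD. Cox7c, Ndufa8 and Sdhd are lowest with bleomycin and LNA-miR-199a-5p, with group means of 12.95, 11.37 and 13.17, while Ndufs7 and Uqcrh are highest there, with means of 14.18 and 15.57.

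After bleomycin with LNA-control 3 respiratory chain genes were called. Of the 68, Ndufab1, Cox6b2 and Uqcrq were called higher than in PBS with LNA-control and the other 65 were not called. That is 4.41% of the members, while 17.5% of all genes tested were called, 9.6% higher and 7.9% lower, and 23.5% of the 6115 genes at least as bright as 9 in 10 members. The median change was 0.07 for the members and 0.00 for all genes. For 65 of the 68 the 95% interval of the change lay within 0.5 on the log2 scale of no change, a fold of 1.41. For 9 members all 5 bleomycin arrays lay above all 3 PBS arrays and for 3 they lay below, which 13.9% and 11.4% of all genes did. With array weights, which count arrays that stand apart for less, 14 members were called, 10 higher and 4 lower, and 32.2% of all genes.

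With the inhibitor in both arms, bleomycin lungs differed from PBS lungs in 9 members, mostly downward. Of the 68 genes, 1 was higher (Cox6b2) and 8 were lower: Cox7c, Ndufa8, Uqcrfs1, Ndufaf2, Ndufb3, Ndufb6, Ndufb2 and Sdhd. The share was 13.2% of the members against 13.4% of all genes and 17.7% of the genes at least as bright as 9 in 10 members. Lower calls made up 8 of the 9, while of all genes 7.31% were called higher and 6.04% lower. The median change was -0.04 for the members and 0.01 for all genes. For 4 members the bleomycin arrays lay wholly above the PBS arrays and for 9 wholly below, as did 10.5% and 10.1% of all genes. When the PBS array with the highest Ucp1 (inhibitor, replicate 1) was left out, 2 members were called, beside 6.52% of all genes. Without replicate 2 of the same group 5 were, beside 6.71%, and without replicate 1 of bleomycin with the inhibitor 14, beside 16.9%. Limma called 0 members when only these 2 groups were fitted (16 at an unadjusted p under 0.05, and 1.3% of all genes called). It also called 0 with the heart list's mean as a term (15, and 1.83%). With RNA integrity as a term 4 members were called, beside 5.57% of all genes. With the replicate number as a block 1 was called, beside 3.18%. Tissue markers moved here too: 20 of 22 heart markers had a positive sign and 4 were called higher, 5 of 8 white and shared fat markers were called higher, and all 14 skeletal muscle markers had a positive sign, with a median of 1.72 and 3 called. The part of these lists in the members' changes was not tested. The heart list averaged 10.36 to 10.82 in these PBS lungs and 10.65 to 11.21 in these bleomycin lungs. As it moved with the comparison, the fit with that list cannot fully separate the 2.

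In bleomycin lungs the inhibitor moved members both ways. Of the 68 genes 8 were higher and 6 were lower, 20.6% against 24.9% of all genes (13.4% higher and 11.4% lower) and 31.4% of the genes at least as bright as 9 in 10 members, and the median change was 0.04 for the members and 0.01 for all genes. Higher were Cox4i2, Ndufa4l2, Ndufs7, Ndufs1, Uqcrh, Sdha, Cox7a2l and Ndufb8, and lower were Cox7c, Ndufa8, Cox6b2, Sdhd, Ndufb6 and Ndufaf2. The arrays stood apart upward for 5 members and downward for 3, where 7.3% and 6.46% of all genes did so. In the same comparison 18 of the 22 heart muscle markers were called higher, and the means of that list did not overlap between the 2 groups. Of the white and shared fat markers 6 of 8 were called higher, with the arrays apart for 7, and of the red blood cell markers 2 of 4. All 14 skeletal muscle markers had a positive sign, with 12 not overlapping and 3 called, and of 8 squamous markers 5 did not overlap and 1 was called. The part of these other lists in the members' changes was not tested. RNA integrity numbers averaged 8.2 (7 to 9) with LNA-control and 9 (8 to 10) with the inhibitor, and with that number as a term 6 members were called, beside 14.3% of all genes. With the mean of the heart list as a term in the model, 0 of the 68 members were called, with 9 at an unadjusted p under 0.05, and 0.522% of all genes were called. As the list's means did not overlap between the 2 groups, this fit cannot separate the list from the inhibitor. Without the 2 arrays high in Rag1, 4 members were called, beside 11.3% of all genes. Of the bleomycin arrays with LNA-control, leaving out replicate 1 alone gave 7, beside 19.1%. Leaving out replicate 4 or 5 gave 9, beside 18.1% and 18.6%. Fitting only the 2 groups gave 9, beside 20.7%.

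In PBS lungs no member was called for the inhibitor in the limma fit, where 0.0479% of all genes were (0.0336% higher and 0.0144% lower), and 14 of the 68 had an unadjusted p under 0.05. The small differences went largely one way. The members' median change was 0.15 against 0.01 for all genes, and 65 of the 68 had a positive sign. The 11 subunits encoded in the mitochondrial genome went the other way, 2 positive and 9 negative, with a median of -0.13 and none called. Positive signs were also found for 7 of 7 genes of cytochrome c and the electron carriers. The same held for 13 of 16 of ATP synthase and 10 of 12 of the tricarboxylic acid cycle. Tissue markers shared it in part: 21 of 22 of heart, 7 of 7 of brown fat, 9 of 14 of skeletal muscle and 3 of 8 squamous. Of all 20863 genes 11280 had a positive sign. For 28 members all 3 arrays with LNA-miR-199a-5p lay above all 3 with LNA-control, and for 1 they lay below. Of all genes 10.2% lay above and 7.89% below in that way. Same-numbered PBS arrays were taken as pairs. Their deviations from the group means correlated at 0.108 to 0.497, and those of differently numbered PBS arrays at -0.452 to 0.287. In the 3 pairs so formed the members' median differences were 0.17, 0.18 and 0.10, with 61, 62 and 51 of the 68 higher. In all 3 pairs 45 members were higher, as were 19.2% of all genes. The widest difference was that of Ndufab1, 0.39 ± 0.11 with an adjusted p of 0.342. In pairs 1 and 2 the heart markers' mean was higher with the inhibitor as well, at 10.82 against 10.38 and 10.73 against 10.42, as was that of the skeletal muscle markers, at 10.74 against 9.54 and 9.94 against 9.10. In pair 3 both were lower with the inhibitor, at 10.36 against 10.41 and 6.39 against 8.48, as were the squamous markers at 6.68 against 9.44, while 51 of the 68 members were higher. The brown fat markers' mean was higher with the inhibitor in every pair, as the members' median was. It read 9.85 against 8.62, 9.37 against 8.31 and 7.32 against 7.23. The part of these tissues in the members' shift was not tested. With the brown fat list alone as a term limma called 0 members, and 5 had an unadjusted p under 0.05. With the heart and brown fat lists as terms the members' median change was 0.08. With array weights 4 members were called, all higher, and 1.89% of all genes.

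The bleomycin effect itself differed between the 2 LNA arms for 6 members, all in the same direction: it was lower with the inhibitor for Cox7c, Ndufa8, Ndufab1, Ndufb6, Sdhd and Ndufb2. They are 8.82% of the members, and 7.01% of all genes were called for this interaction, 3.07% higher and 3.94% lower, and 9.32% of the genes at least as bright as 9 in 10 members. The median was -0.12 for the members and 0.00 for all genes. All 4 groups enter this difference, so it shares arrays with each comparison above, and the 0.15 of the PBS lungs is part of it. Leaving out 1 array lowered the count to 1 for each of 3 PBS arrays (LNA-control replicates 2 and 3, LNA-miR-199a-5p replicate 1), to 2 without LNA-miR-199a-5p replicate 2 of PBS, and to 3 without LNA-control replicate 1 of PBS or replicates 1, 4 or 5 of bleomycin. In these fits 3.03% to 4.4% of all genes were called. Without both arrays high in Rag1 the count was 0, with 9 members at an unadjusted p under 0.05 by limma, beside 2.52% of all genes. With the heart list as a term it was 0 (17 at that p), beside 0.81%. With RNA integrity as a term it was 1, beside 3.51%, and with array weights 14, beside 18.5% of all genes. Over 30 alternatives the call was lost in 22 for Ndufb2, 17 for Cox7c, 14 for Ndufa8, 9 for Ndufab1, 8 for Sdhd and 4 for Ndufb6, and no sign changed.

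**Figure D2:**
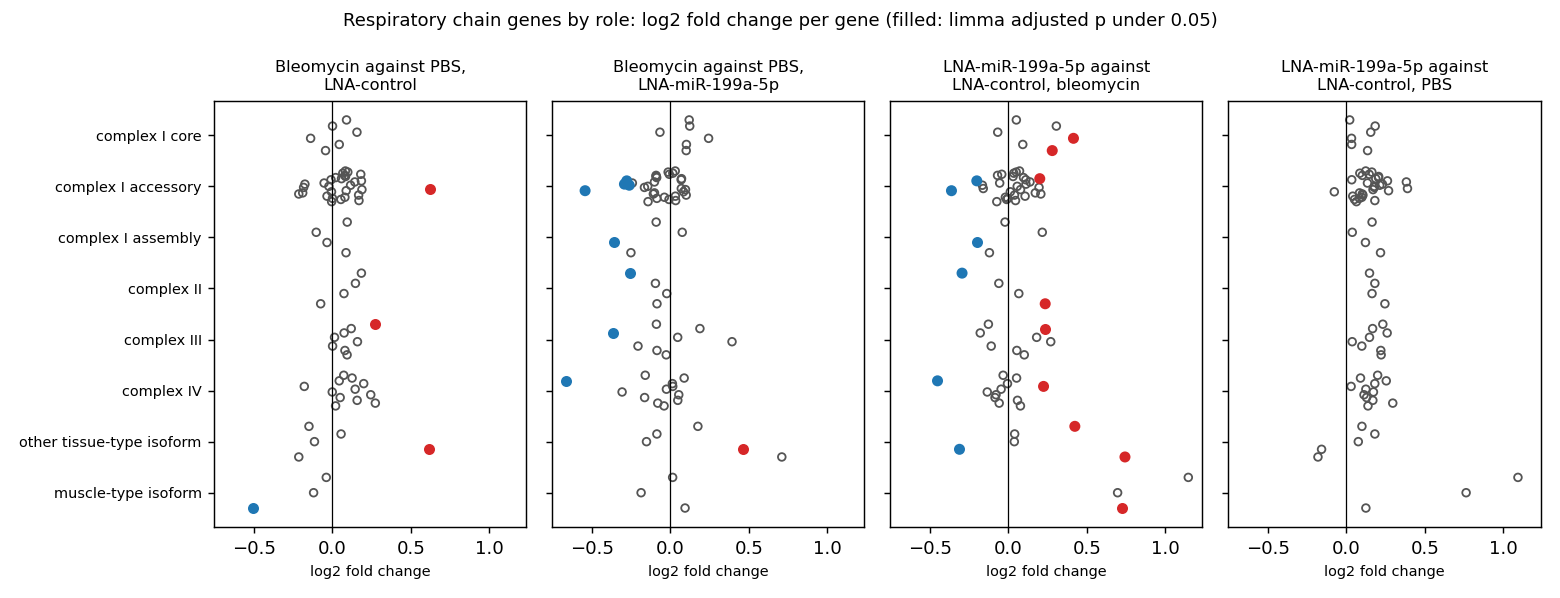
Log2 change (x axis) of each of the 70 respiratory chain genes and Cox8b in 4 comparisons, sorted by role (y axis); each point is 1 gene and filled points are called at a limma adjusted p under 0.05. Bleomycin with LNA-control has 3 filled points among the 68 members, the inhibitor in bleomycin lungs 14, and in PBS lungs none is filled while 65 of 68 lie to the right of 0.

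Complex I receives electrons from NADH through a set of core subunits that carry flavin and iron-sulphur clusters. Of the 6 core genes that the rule took, all encoded in the nucleus, 2 rose with the inhibitor in bleomycin lungs and the other 4 were not called in any comparison. Core subunits encoded in the mitochondrial genome lie outside the rule. Among them ND1 was called lower with the inhibitor in bleomycin lungs and ND2 lower after bleomycin with LNA-control. Ndufs7, the core subunit that holds the iron-sulphur cluster next to the quinone site, read 13.99, 13.93 and 13.79 in PBS with LNA-control, 13.93, 13.95 and 13.92 in PBS with LNA-miR-199a-5p, 13.74, 13.92, 13.92, 13.63 and 13.60 in bleomycin with LNA-control, and 13.99, 14.03, 14.12, 14.37 and 14.38 in bleomycin with LNA-miR-199a-5p. All 5 arrays with bleomycin and the inhibitor lay above the other 11, though replicate 1 of PBS with LNA-control came within rounding of the lowest of them. Against bleomycin with LNA-control the rise was 0.42 ± 0.091, a fold of 1.33 with an adjusted p of 0.00363. Ndufs1, the large core subunit of the arm that takes in electrons, read 12.98, 12.96 and 12.72 in PBS with LNA-control, 13.12, 13.07 and 12.89 in PBS with LNA-miR-199a-5p, 12.90, 12.79, 12.95, 12.75 and 12.84 in bleomycin with LNA-control, and 13.08, 13.17, 13.09, 13.16 and 13.13 in bleomycin with LNA-miR-199a-5p. The bleomycin groups did not overlap, and the PBS arrays with the inhibitor lay among those of bleomycin with LNA-miR-199a-5p or below them. The rise in bleomycin lungs was 0.28 ± 0.068 with an adjusted p of 0.00691.

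Around this core sit accessory subunits that stabilise the complex, of which 29 were measured. After bleomycin with LNA-control 1 of them rose, with the inhibitor in both arms 4 fell, and for the inhibitor in bleomycin lungs 1 rose and 2 fell. Ndufab1, the mitochondrial acyl carrier protein, which is a subunit of complex I and also serves fatty acid and lipoic acid synthesis, read 8.82, 8.56 and 8.56 in PBS with LNA-control, 9.09, 9.06 and 8.96 in PBS with LNA-miR-199a-5p, 9.35, 9.03, 9.15, 9.50 and 9.32 in bleomycin with LNA-control, and 9.11, 9.14, 9.09, 9.16 and 9.03 in bleomycin with LNA-miR-199a-5p. The 3 arrays of PBS with LNA-control were the lowest of all 16, and the other 3 groups overlapped. It rose by 0.62 ± 0.096 after bleomycin with LNA-control, a fold of 1.54, with an adjusted p of 0.00029. With the inhibitor in both arms its change was 0.07 ± 0.096, with an adjusted p of 0.666. The difference between those bleomycin effects was -0.55 ± 0.14 with an adjusted p of 0.0249, and the PBS arrays read 8.96 to 9.09 with the inhibitor and 8.56 to 8.82 with LNA-control.

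Ndufa8, an accessory subunit on the intermembrane side, had the largest fall of complex I. It read 11.56, 11.67 and 11.71 in PBS with LNA-control, 12.01, 11.95 and 11.79 in PBS with LNA-miR-199a-5p, 11.82, 11.45, 11.77, 11.87 and 11.76 in bleomycin with LNA-control, and 11.59, 11.52, 11.36, 11.37 and 11.02 in bleomycin with LNA-miR-199a-5p. PBS with LNA-miR-199a-5p was the highest group and bleomycin with LNA-miR-199a-5p the lowest, and these 2 did not overlap, while the 2 bleomycin groups overlapped through replicate 2 of LNA-control at 11.45. With the inhibitor in both arms it fell by 0.54 ± 0.12, a fold of 1.46, with an adjusted p of 0.0111. In bleomycin lungs it fell with the inhibitor by 0.36 ± 0.10 with an adjusted p of 0.0172. The difference between its bleomycin effects in the arms was -0.63 ± 0.17, lower with the inhibitor, with an adjusted p of 0.033.

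Ndufb6, a subunit of the membrane arm of complex I, was measured by 2 probes that moved alike. The brighter probe read 12.71, 12.75 and 12.77 in PBS with LNA-control, 13.09, 12.99 and 12.93 in PBS with LNA-miR-199a-5p, 12.97, 12.90, 12.91, 12.93 and 12.93 in bleomycin with LNA-control, and 12.86, 12.78, 12.69, 12.78 and 12.53 in bleomycin with LNA-miR-199a-5p. The 3 groups other than PBS with LNA-control divided in order, PBS with the inhibitor above, bleomycin with LNA-control between and bleomycin with the inhibitor below, with an overlap only between the upper pair. Bleomycin with the inhibitor lay 0.28 ± 0.072 below PBS with the inhibitor, with an adjusted p of 0.0227, and 0.20 ± 0.063 below bleomycin with LNA-control, with an adjusted p of 0.0287. Ndufb6 lost these calls in 8 and 11 of 31 alternatives. Its other probe fell by 0.38 and 0.26 in the same comparisons and was called in both.

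Other membrane-arm genes were called as well. Ndufb3 read 13.84, 13.80 and 13.88 in PBS with LNA-control, 14.18, 14.05 and 13.98 in PBS with LNA-miR-199a-5p, 13.68, 13.58, 13.80, 13.63 and 13.63 in bleomycin with LNA-control, and 13.86, 13.85, 13.74, 13.73 and 13.71 in bleomycin with LNA-miR-199a-5p, and was lower after bleomycin with the inhibitor by 0.29 ± 0.07, with an adjusted p of 0.0163. With LNA-control its arrays did not overlap either and the change was -0.17 ± 0.07, which was not called. Its bleomycin effects did not differ by a called amount between the arms. Ndufb2 was lower after bleomycin with the inhibitor by 0.26 ± 0.077 with an adjusted p of 0.0369, with PBS arrays between 14.11 and 14.20 and bleomycin arrays between 13.70 and 14.06. Ndufb2 lost this call in 14 of 31 alternatives. Its other probe was not called there, at -0.20, and was called lower for the inhibitor in bleomycin lungs, at -0.34. Ndufb8 moved the other way, read 14.04 to 14.07 in bleomycin with LNA-control and 14.17 to 14.33 with the inhibitor, a rise of 0.20 ± 0.062 with an adjusted p of 0.027. That call was lost in 13 of 31 alternatives. Complex I accessory genes thus include both directions in the same comparison. Ndufaf2, an assembly factor needed late in building complex I, fell by 0.36 ± 0.082 after bleomycin with the inhibitor (adjusted p 0.0137), with PBS arrays between 10.60 and 10.88 and bleomycin arrays between 10.29 and 10.46, and was lower with the inhibitor in bleomycin lungs by 0.20 ± 0.071 (adjusted p 0.0494), a call that was lost in 20 of 31 alternatives, over which the change ran from -0.23 to -0.04. The other 3 assembly factors were not called in any comparison.

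Complex II is made of 4 subunits, all encoded in the nucleus, and is an enzyme of the tricarboxylic acid cycle as well. Its genes went different ways. Sdhd, a membrane anchor, read 13.42, 13.21 and 13.22 in PBS with LNA-control, 13.58, 13.37 and 13.34 in PBS with LNA-miR-199a-5p, 13.40, 13.55, 13.36, 13.48 and 13.55 in bleomycin with LNA-control, and 13.27, 13.11, 13.16, 13.17 and 13.15 in bleomycin with LNA-miR-199a-5p. All 5 arrays with bleomycin and the inhibitor lay below all 5 with LNA-control and below the 3 PBS arrays with the inhibitor. The fall was 0.29 ± 0.068 against bleomycin with LNA-control, with an adjusted p of 0.00512, and 0.26 ± 0.078 against PBS with the inhibitor, with an adjusted p of 0.0409. These calls were lost in 2 and 15 of 31 alternatives. Sdha, the flavin-carrying catalytic subunit, read 13.36, 13.44 and 13.42 in PBS with LNA-control, 13.75, 13.69 and 13.52 in PBS with LNA-miR-199a-5p, 13.33, 13.12, 13.48, 13.31 and 13.41 in bleomycin with LNA-control, and 13.66, 13.66, 13.56, 13.40 and 13.56 in bleomycin with LNA-miR-199a-5p. In bleomycin lungs it rose with the inhibitor by 0.24 ± 0.076, with an adjusted p of 0.0334, and the groups overlapped. That call was lost in 14 of 31 alternatives. Sdhb, the iron-sulphur subunit, was not called in any comparison, and its change with the inhibitor in bleomycin lungs was 0.07 ± 0.079 with a 95% interval from -0.10 to 0.23. Sdhc, the second anchor, was not called in any comparison either, and the same change was -0.06 ± 0.063 with an interval from -0.19 to 0.07.

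Complex III carries electrons from quinol to cytochrome c. Of its 8 genes 1 rose after bleomycin with LNA-control, 1 fell with the inhibitor in both arms and 1 rose with the inhibitor in bleomycin lungs. Uqcrh, the hinge protein that holds cytochrome c1 to its partner, had the smallest within-group SD of all members (0.064). It read 15.26, 15.22 and 15.17 in PBS with LNA-control, 15.42, 15.49 and 15.23 in PBS with LNA-miR-199a-5p, 15.37, 15.29, 15.33, 15.34 and 15.34 in bleomycin with LNA-control, and 15.54, 15.54, 15.55, 15.60 and 15.63 in bleomycin with LNA-miR-199a-5p. All 5 arrays with bleomycin and the inhibitor were the highest of the 16, above all 5 with LNA-control by 0.24 ± 0.057 with an adjusted p of 0.0068. Uqcrq, a small subunit near the quinone sites, read 14.67, 14.61 and 14.49 in PBS with LNA-control, 14.96, 14.83 and 14.68 in PBS with LNA-miR-199a-5p, 14.78, 14.77, 14.98, 14.89 and 14.88 in bleomycin with LNA-control, and 14.71, 14.80, 14.57, 14.85 and 14.74 in bleomycin with LNA-miR-199a-5p. Bleomycin with LNA-control lay above PBS with LNA-control on every array, a rise of 0.27 ± 0.083 with an adjusted p of 0.0323. Uqcrq lost this call in 9 of 31 alternatives. Its second, dimmer probe was not called there, at 0.24, but was called lower with the inhibitor in bleomycin lungs, at -0.72, where the brighter probe was not called. Uqcrfs1, the Rieske iron-sulphur protein, read 12.80, 12.73 and 12.69 in PBS with LNA-control, 13.22, 12.95 and 12.84 in PBS with LNA-miR-199a-5p, 12.84, 12.70, 12.75, 12.88 and 12.92 in bleomycin with LNA-control, and 12.80, 12.68, 12.59, 12.67 and 12.45 in bleomycin with LNA-miR-199a-5p. With the inhibitor in both arms it fell after bleomycin by 0.36 ± 0.093 with an adjusted p of 0.0213, and the arrays did not overlap. With LNA-control its change was 0.08 ± 0.093, and the difference between the bleomycin effects had an adjusted p of 0.0562.

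Complex IV, cytochrome c oxidase, uses oxygen. Of its 12 general genes none was called after bleomycin with LNA-control by limma (4 had an unadjusted p under 0.05), 1 fell with the inhibitor in both arms, and 1 rose and 1 fell with the inhibitor in bleomycin lungs. Cox7c, a small subunit needed for the activity of the complex, read 13.39, 13.26 and 13.40 in PBS with LNA-control, 13.71, 13.45 and 13.66 in PBS with LNA-miR-199a-5p, 13.45, 13.12, 13.36, 13.59 and 13.46 in bleomycin with LNA-control, and 13.27, 12.82, 12.96, 13.16 and 12.52 in bleomycin with LNA-miR-199a-5p. The arrays with bleomycin and the inhibitor reached down to 12.52 and up to 13.27, below all 3 PBS arrays with the inhibitor, and overlapped those of bleomycin with LNA-control. Its fall after bleomycin with the inhibitor was the largest of the members, 0.66 ± 0.14 or a fold of 1.58, with an adjusted p of 0.01. In bleomycin lungs it fell with the inhibitor by 0.45 ± 0.12, with an adjusted p of 0.0132. Its other 2 probes had the same sign and smaller changes, -0.32 and -0.26 after bleomycin with the inhibitor, and were not called. Cox7a2l, which joins complexes III and IV into supercomplexes, read 15.44, 15.35 and 15.34 in PBS with LNA-control, 15.35, 15.55 and 15.32 in PBS with LNA-miR-199a-5p, 15.03, 15.20, 15.24, 15.24 and 15.29 in bleomycin with LNA-control, and 15.37, 15.48, 15.38, 15.49 and 15.39 in bleomycin with LNA-miR-199a-5p. It rose with the inhibitor in bleomycin lungs by 0.22 ± 0.065 with an adjusted p of 0.0194, with no overlap, and its other 2 probes were not called.

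A group of 5 members are isoforms made mainly in certain tissues. Cox6b2, the testis form of a complex IV subunit, read 10.27, 10.30 and 10.25 in PBS with LNA-control, 10.07, 10.08 and 10.20 in PBS with LNA-miR-199a-5p, 10.93, 10.92, 10.79, 10.91 and 10.90 in bleomycin with LNA-control, and 10.43, 10.39, 10.38, 10.61 and 11.09 in bleomycin with LNA-miR-199a-5p. After bleomycin it was higher than in PBS without overlap in both arms: by 0.62 ± 0.12 with LNA-control, with an adjusted p of 0.00226, and by 0.46 ± 0.12 with the inhibitor, with an adjusted p of 0.0249. It was the only member called higher in both arms. The call with the inhibitor was lost in 9 of 31 alternatives, including without any single PBS array with the inhibitor. With the inhibitor the bleomycin arrays were lower by 0.31 ± 0.11 (adjusted p 0.0448), apart from replicate 5 at 11.09, the highest of all 16. That call was lost in 19 of 31 alternatives, over which the change ran from -0.58 to -0.26. Cox4i2, the isoform of subunit 4 that is abundant in lung, read 10.89, 10.90 and 10.90 in PBS with LNA-control, 10.45, 10.64 and 11.07 in PBS with LNA-miR-199a-5p, 10.48, 11.17, 10.88, 10.42 and 10.47 in bleomycin with LNA-control, and 10.92, 10.91, 11.21, 11.82 and 12.28 in bleomycin with LNA-miR-199a-5p. In bleomycin lungs it rose with the inhibitor by 0.74 ± 0.23, with an adjusted p of 0.028, and the groups overlapped: replicates 4 and 5 of the inhibitor group stood above every other array. Cox4i2 lost this call in 10 of 31 alternatives and changed sign in 1 more. Ndufa4l2, a paralogue of Ndufa4 that low oxygen induces, rose likewise by 0.42 ± 0.12 with an adjusted p of 0.0145, with arrays between 11.11 and 11.64 for LNA-control and between 11.51 and 12.06 for the inhibitor. With the heart and brown fat lists as terms these changes had the opposite sign, -0.23 for Cox4i2 and -0.18 for Ndufa4l2, and neither was called. Cox7b2 and Cox8c were not called in any comparison.

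The muscle-type isoforms had within-group SDs of 0.224 (Cox6a2), 0.489 (Cox7a1) and 0.743 (Cox8b), where the median member had 0.109, and of the 3 highest and the 3 lowest arrays at least 2 each were also those of Myh6 (for Cox6a2) or Ucp1 (for Cox7a1 and Cox8b). Cox6a2, the subunit 6a form of heart and skeletal muscle, read 12.78, 12.76 and 13.02 in PBS with LNA-control, 13.07, 13.02 and 12.85 in PBS with LNA-miR-199a-5p, 12.09, 12.45, 12.86, 12.34 and 12.01 in bleomycin with LNA-control, and 13.12, 13.13, 12.81, 13.13 and 13.17 in bleomycin with LNA-miR-199a-5p. Bleomycin with LNA-control stood low, with replicate 3 at 12.86 inside the range of PBS. It fell after bleomycin with LNA-control by 0.51 ± 0.15, with an adjusted p of 0.0271, and in bleomycin lungs rose with the inhibitor by 0.73 ± 0.13, with an adjusted p of 0.000948. With the heart and brown fat lists as terms the latter was -0.012. The call after bleomycin with LNA-control was lost in 10 of 31 alternatives. Myh6, the heart myosin heavy chain, read 14.36, 14.65 and 14.80 in PBS with LNA-control, 14.63, 14.64 and 14.75 in PBS with LNA-miR-199a-5p, 13.77, 14.23, 14.50, 13.96 and 13.87 in bleomycin with LNA-control, and 14.81, 14.70, 14.28, 14.87 and 15.18 in bleomycin with LNA-miR-199a-5p. The 3 arrays of bleomycin with LNA-control lowest in Cox6a2 (replicates 5, 1 and 4) were also the 3 lowest of all 16 in Myh6, and replicates 4 and 5 of bleomycin with the inhibitor were the highest in both. Among the heart markers 6 of 22 fell after bleomycin with LNA-control.

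Cox8b, a subunit 8 form of muscle and brown fat, spanned the widest range of the 3 isoforms. It read 12.47, 11.93 and 11.36 in PBS with LNA-control, 14.20, 13.47 and 11.37 in PBS with LNA-miR-199a-5p, 11.78, 11.96, 12.49, 12.15 and 11.02 in bleomycin with LNA-control, and 13.19, 13.05, 12.43, 13.34 and 13.14 in bleomycin with LNA-miR-199a-5p. The 3 lowest arrays, one each of bleomycin with LNA-control (replicate 5), PBS with LNA-control (replicate 3) and PBS with the inhibitor (replicate 3), were the 3 lowest in Ucp1, the uncoupling protein of brown fat, and the 2 highest, PBS with the inhibitor replicates 1 and 2, were the 2 highest in Ucp1 at 13.86 and 13.00. The PBS group with the inhibitor thus had an SD of 1.47. The change with the inhibitor in bleomycin lungs was 1.15 ± 0.41 with an adjusted p of 0.0501, just outside the threshold. Cox7a1, the subunit 7a form of heart, muscle and brown fat, read 12.00, 11.70 and 11.66 in PBS with LNA-control, 13.39, 12.71 and 11.56 in PBS with LNA-miR-199a-5p, 11.40, 11.88, 12.08, 11.87 and 11.12 in bleomycin with LNA-control, and 12.60, 12.31, 11.80, 12.51 and 12.62 in bleomycin with LNA-miR-199a-5p. It shared its 2 highest arrays with Ucp1. Its change with the inhibitor in bleomycin lungs was 0.70 ± 0.27 with an adjusted p of 0.0715, and in PBS lungs 0.76 ± 0.35 with an adjusted p of 0.666. For the inhibitor in PBS lungs limma called none of the 3 muscle-type isoforms, and 1 had an unadjusted p under 0.05.

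**Figure D3:**
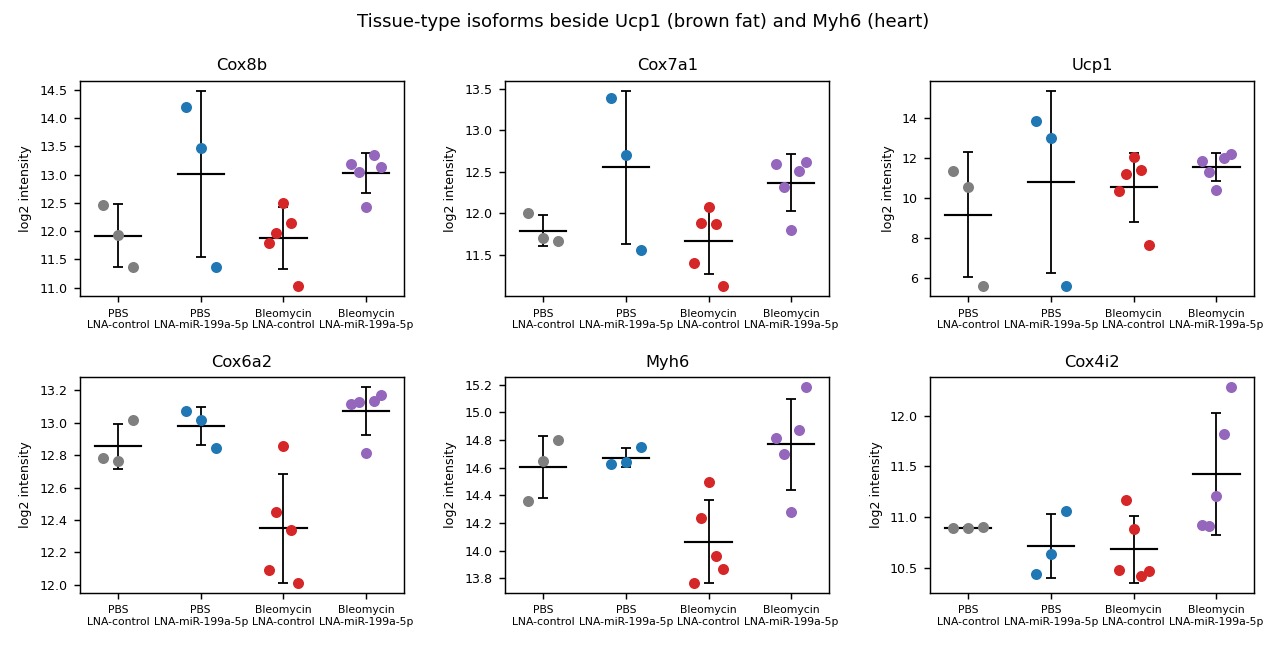
Log2 intensity (y axis, log2 scale) of the muscle-type isoforms Cox8b, Cox7a1 and Cox6a2 and of Cox4i2 on each array, beside Ucp1 of brown fat and Myh6 of heart; each point is 1 array, the bar is the group mean and the whiskers are 1 SD. Cox8b and Ucp1 share their 3 lowest and their 2 highest arrays, and Cox6a2 and Myh6 are both lowest in bleomycin with LNA-control.

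To set the sequences before the start sites of members that moved beside those of muscle-type genes, the 250 bases upstream of the annotated start were taken from RefSeq (GRCm38.p6), which had a promoter for 56 of the 68 members. The letters searched on both strands were GCATGCGC (the core of the NRF-1 motif), CCGGAAG (ETS factors, the family of GABP), CCAAT (the binding letters of NF-Y), TATAAA (a form of the TATA box), CAGCTG (an E-box), AAGATGGC (YY1) and TCAAGGTCA (oestrogen-related receptors). None of these letter strings overlaps another within the promoters printed. The NRF-1 core was found in 10.7% of the members' promoters and 2.32% of all 27025 promoters, and the ETS letters in 16.1% and 7.05%. CCAAT was in 41.1% and 34.5%, TATAAA in 8.93% and 13.0%, CAGCTG in 7.14% and 12.8%, and AAGATGGC and TCAAGGTCA in 0 of 56 against 1.59% and 0.366%. The median GC content was 57.0% for the members and 52.0% for all. The first 3 printed fell with the inhibitor in bleomycin lungs, the next pair rose, and the last pair are muscle-type genes. None of the letters was found for Cox7c (chr13:86046796-86047045, minus strand). For Sdhd and Uqcrh the ETS letters lie on the opposite strand and read CTTCCGG as printed. Capitals mark the letters found: the NRF-1 core and an E-box for Ndufa8 (chr2:36049339-36049588, minus strand), the ETS letters for Sdhd (chr9:50603850-50604099, minus), TATAAA for Ndufs7 (chr10:80249199-80249448, plus), CCAAT and the ETS letters for Uqcrh (chr4:116075071-116075320, minus), CCAAT on the opposite strand at 2 places for Cox7a1 (chr7:30183921-30184170, plus) and an E-box for Cox8b (chr7:140900447-140900696, minus).
Cox7c: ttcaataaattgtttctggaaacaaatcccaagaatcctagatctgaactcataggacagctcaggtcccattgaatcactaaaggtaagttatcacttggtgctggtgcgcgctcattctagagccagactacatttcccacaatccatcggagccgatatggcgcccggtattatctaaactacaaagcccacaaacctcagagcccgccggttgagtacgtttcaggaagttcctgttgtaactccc
Ndufa8: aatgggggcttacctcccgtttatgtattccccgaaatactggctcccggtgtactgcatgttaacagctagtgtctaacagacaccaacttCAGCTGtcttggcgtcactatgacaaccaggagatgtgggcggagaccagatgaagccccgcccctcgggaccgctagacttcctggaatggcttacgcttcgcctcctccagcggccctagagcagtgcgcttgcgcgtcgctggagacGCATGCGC
Sdhd: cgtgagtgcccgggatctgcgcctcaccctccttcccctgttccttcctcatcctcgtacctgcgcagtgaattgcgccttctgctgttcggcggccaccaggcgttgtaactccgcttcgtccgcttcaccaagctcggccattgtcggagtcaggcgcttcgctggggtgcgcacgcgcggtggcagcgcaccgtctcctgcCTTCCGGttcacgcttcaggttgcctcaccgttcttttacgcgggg
Ndufs7: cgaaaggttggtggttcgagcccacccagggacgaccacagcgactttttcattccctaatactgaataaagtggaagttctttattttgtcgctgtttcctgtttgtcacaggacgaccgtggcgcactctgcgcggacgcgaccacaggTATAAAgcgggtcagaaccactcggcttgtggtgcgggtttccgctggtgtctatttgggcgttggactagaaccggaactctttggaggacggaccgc
Uqcrh: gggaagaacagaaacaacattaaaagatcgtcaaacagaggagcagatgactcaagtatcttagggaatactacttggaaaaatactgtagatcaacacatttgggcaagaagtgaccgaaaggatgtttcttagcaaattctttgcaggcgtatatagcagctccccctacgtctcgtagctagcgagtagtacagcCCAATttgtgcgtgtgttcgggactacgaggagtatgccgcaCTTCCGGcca
Cox7a1: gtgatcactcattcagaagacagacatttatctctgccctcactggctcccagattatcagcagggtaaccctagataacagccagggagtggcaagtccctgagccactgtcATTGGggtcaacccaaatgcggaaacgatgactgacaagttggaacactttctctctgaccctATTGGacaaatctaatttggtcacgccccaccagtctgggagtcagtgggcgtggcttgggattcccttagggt
Cox8b: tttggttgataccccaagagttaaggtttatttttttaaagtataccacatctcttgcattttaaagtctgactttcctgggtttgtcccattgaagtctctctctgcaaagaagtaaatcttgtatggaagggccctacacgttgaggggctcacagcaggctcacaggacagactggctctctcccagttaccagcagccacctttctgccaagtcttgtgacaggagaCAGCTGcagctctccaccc
The Ndufs7 window lies inside the gene's RefSeq span, which begins at chr10:80249105, so it is not upstream of that first base. A match describes the letters only. Genes with these motifs stand on both sides: Ndufa8 and Sdhd fell and Uqcrh rose in the same comparison, and Cox7c, with none of them, fell.

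The chain's partners in the mitochondrion were described from lists of other genes. Their counts stand beside the shares of all genes called higher and lower, which were 9.6% and 7.9% after bleomycin with LNA-control, 7.31% and 6.04% after bleomycin with the inhibitor, and 13.4% and 11.4% for the inhibitor in bleomycin lungs. ATP synthase, which uses the proton gradient, had 16 genes measured: 3 rose after bleomycin with LNA-control and 4 fell with the inhibitor in bleomycin lungs. Atpif1, the inhibitor protein of ATP synthase, did both, rising by 0.32 ± 0.071 (adjusted p 0.00462) and falling by 0.29 ± 0.062 (adjusted p 0.00282), and Atp5g1 and Atp5pb, a membrane ring and a stalk subunit, did likewise. The list's median was 0.16 after bleomycin with LNA-control and -0.05 for the inhibitor in bleomycin lungs. Of 7 genes of cytochrome c and the electron carriers, Cyc1, the cytochrome c1 of complex III, rose after bleomycin with LNA-control by 0.28 ± 0.087 (adjusted p 0.0372), and Dhodh rose with the inhibitor in bleomycin lungs. Of the 11 subunits encoded in the mitochondrial genome, 1 fell after bleomycin with LNA-control (ND2, -0.41 ± 0.13), 1 rose with the inhibitor in both arms (ATP8, 0.71 ± 0.18) and 1 fell with the inhibitor in bleomycin lungs (ND1, -0.45 ± 0.15).

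Factors that build complexes II, III and IV gave 3 rises of 25 after bleomycin with LNA-control, and 4 rises and 4 falls with the inhibitor in bleomycin lungs. Ttc19, which acts on complex III, rose by 0.50 ± 0.081 after bleomycin with LNA-control (adjusted p 0.000441) and was lower with the inhibitor by 0.37 ± 0.07 (adjusted p 0.00155). Sco2, a copper carrier for complex IV, rose with the inhibitor by 0.48 ± 0.12. Of the 78 mitochondrial ribosome genes 10.3% were called after bleomycin with LNA-control (7 higher, 1 lower), where 17.5% of all genes were, 10.3% after bleomycin with the inhibitor (4 higher, 4 lower), where 13.4% were, and 19.2% with the inhibitor in bleomycin lungs (3 higher, 12 lower), where 24.9% were. The list's medians were 0.06, -0.05 and -0.05. Of 14 genes that control mitochondrial biogenesis, only Esrra was called after bleomycin with LNA-control, with a rise of 0.26 ± 0.075. After bleomycin with the inhibitor 2 of the 14 were called higher and 2 lower. One of the lower was Gabpa, the DNA-binding part of GABP, which fell by 0.64 ± 0.14 (adjusted p 0.0122). In bleomycin lungs 4 of the 14 rose with the inhibitor, among them Polg, the mitochondrial DNA polymerase, by 0.40 ± 0.071 and Nrf1 by 0.35 ± 0.081.

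Glycolysis, which makes ATP outside the mitochondrion, rose after bleomycin in part of its genes. Of 16 genes 6 rose with LNA-control and 10 with the inhibitor in both arms, where 9.6% and 7.31% of all genes were called higher. The list had medians of 0.27 and 0.32, while the respiratory chain members had 0.07 and -0.04 and the difference between the lists was not tested. Gapdh read 16.07, 16.12 and 15.94 in PBS with LNA-control, 16.08, 16.08 and 15.98 in PBS with LNA-miR-199a-5p, 16.65, 16.80, 16.58, 16.46 and 16.69 in bleomycin with LNA-control, and 16.45, 16.40, 16.51, 16.77 and 16.72 in bleomycin with LNA-miR-199a-5p. Bleomycin arrays lay above PBS arrays in both arms, by 0.59 ± 0.096 with LNA-control (adjusted p 0.000444) and 0.52 ± 0.096 with the inhibitor (adjusted p 0.00659). Ldha, which makes lactate from pyruvate, rose by 0.52 ± 0.079 with LNA-control (adjusted p 0.000257), and Tpi1 by 0.63 ± 0.093 with the inhibitor in both arms (adjusted p 0.00296). In bleomycin lungs 5 glycolysis genes rose with the inhibitor, led by the muscle phosphofructokinase Pfkm at 0.80 ± 0.13 (adjusted p 0.000472), in the comparison in which 18 of 22 heart markers rose. The 12 genes of the tricarboxylic acid cycle gave no call after bleomycin with LNA-control by limma, with 1 at an unadjusted p under 0.05, and Idh3b and Ogdh rose with the inhibitor in bleomycin lungs by 0.32 ± 0.081 and 0.38 ± 0.12. Markers of scar-associated macrophages moved with the bleomycin comparisons, averaging 8.58 to 8.59 and 8.89 to 8.93 in the PBS groups, 11.19 to 11.64 in bleomycin with LNA-control and 9.17 to 9.40 in bleomycin with LNA-miR-199a-5p, and their part in the changes of glycolysis or respiratory chain genes was not tested.

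**Figure D4:**
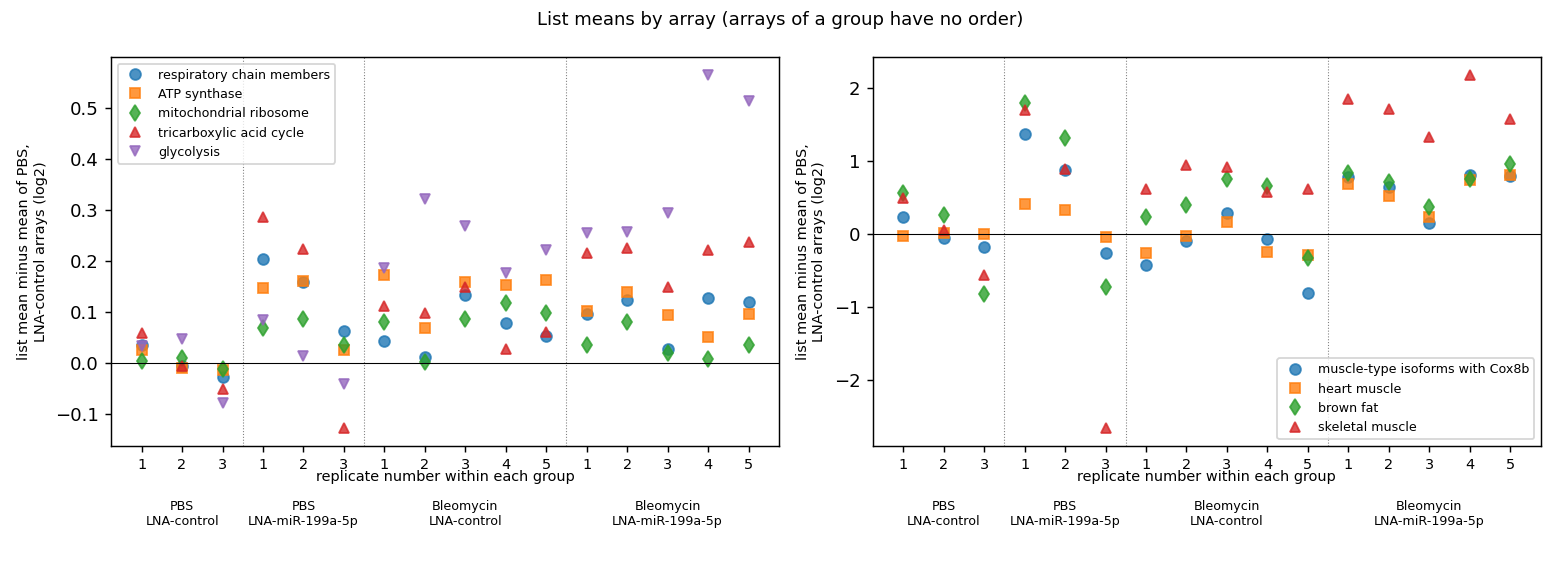
Mean log2 level of each gene list on each array minus the mean of the 3 arrays of PBS with LNA-control (y axis, log2), by group and replicate number (x axis); each marker is 1 list on 1 array, mitochondrial and glycolysis lists on the left and muscle, heart and brown fat lists on the right, with different y scales. The difference from the PBS arrays with LNA-control is larger for glycolysis than for the respiratory chain members on all 10 bleomycin arrays, the muscle-type isoforms with Cox8b and the brown fat list are both highest on replicates 1 and 2 of PBS with the inhibitor, and the skeletal muscle list is lowest on replicate 3 of that group.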

How the data were processed

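Total RNA of 16 mouse lung samples was labelled with Cy3 and hybridised to Agilent arrays, per the labels. The authors deposited log2 intensities that were already quantile normalized (sorted arrays lay within 0.0974 of each other) and used limma, per the submitters' processing notes, with no version given; the background correction, scanner software and genome build are not given in the sources used here. Of 62976 spots, the platform table named a gene for 31465 and none for 31511. Symbols were updated through RefSeq accessions for 29050 probes, and the probe with the highest mean was kept per gene, leaving 20863 genes. Of the members, 20 had several probes. The deposited values were fitted without further scaling with limma 3.58.1 in R 4.3.3, as 1 model of 4 group means with 5 contrasts and two-sided tests, with calls made where the Benjamini-Hochberg adjusted p was under 0.05. The same code was tested on simulated data. The number of arrays limits the precision.

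The members and lists were chosen with earlier results of these data known. Named genes were, per contrast, the 8 largest rises and falls among called members, all complex II and tissue-type genes, the 2 brightest members per role, and up to 4 genes per list by p. The comparisons share control arrays. Ndufaf5, Ndufaf6, Ndufaf7 and Ndufaf8 carry older names on the platform and lie outside the rule.

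Replicate numbers were checked as pairs by correlating the arrays' deviations from the group means. Between the 2 PBS groups same-numbered arrays gave 0.108 to 0.497, all above 0.1, and differently numbered ones -0.452 to 0.287. Same-numbered arrays gave -0.373 to 0.0271 between the bleomycin groups, and 0.043 to 0.324 between PBS and bleomycin with the inhibitor. Differently numbered arrays of the latter 2 groups gave -0.201 to 0.208. The numbers were taken to pair the PBS arrays only, a choice made from these same data. These correlations do not settle it, because the ranges of same-numbered and differently numbered arrays overlap, between the PBS groups and between the groups with the inhibitor. Alternatives were other scalings, filters, probes, covariates, array sets and a replicate block.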

Additional observations from a re-analysis of the deposited data

Results flagged for a closer look

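Dixon's test, which flags about 1 in 20 groups by chance, was run on the 2 groups of 5 arrays for 26 named genes, 52 groups in all, and flagged 4. In bleomycin with LNA-control, Cox6b2 of replicate 3 read 10.79 where the other 4 arrays lay between 10.90 and 10.93. In the same group replicate 2 read 11.45 for Ndufa8, where the others lay between 11.76 and 11.87, and 12.10 for Sdhc, where they lay between 12.25 and 12.30. In bleomycin with LNA-miR-199a-5p, Cox6a2 of replicate 3 read 12.81 and the others 13.12 to 13.17.

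The bleomycin effect differed between the LNA arms for 6 members by limma's interaction term, lower with the inhibitor in each: Cox7c at -0.71, Ndufa8 at -0.63, Ndufab1 at -0.55, Ndufb6 at -0.46, Sdhd at -0.44 and Ndufb2 at -0.38.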

How the results depend on the processing

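The counts of members called, in the order bleomycin with LNA-control, bleomycin with the inhibitor, inhibitor in bleomycin lungs, inhibitor in PBS lungs and interaction, were 3, 9, 14, 0 and 6 of 68. Leaving out 1 array at a time gave 2 to 4, 2 to 14, 7 to 19, 0 to 0 and 1 to 7. Of all genes 11% to 19.1%, 5.68% to 16.9%, 18.1% to 27%, 0.00959% to 0.58% and 3.03% to 10.6% were then called. With the replicate number as a block the counts were 2, 1, 12, 0 and 4, beside 11.6%, 3.18%, 21.8%, 0.0144% and 4.54% of all genes. With the block over the PBS arrays alone the inhibitor gave 0. Fitting only the groups compared gave 0 for bleomycin with the inhibitor (16 with an unadjusted p under 0.05) and 9 for the inhibitor in bleomycin lungs. Those fits called 1.3% and 20.7% of all genes. Without the arrays high in Rag1 the inhibitor in bleomycin lungs gave 4 and the interaction 0, beside 11.3% and 2.52% of all genes. With RNA integrity as a term the counts were 4, 6 and 1 for bleomycin with the inhibitor, the inhibitor in bleomycin lungs and the interaction. The shares of all genes were then 5.57%, 14.3% and 3.51%. With the heart list as a term, or the heart and brown fat lists, these 3 counts were 0, with 15, 9 and 17 or 10, 5 and 10 at an unadjusted p under 0.05. Of all genes 1.83%, 0.522% and 0.81% or 3.36%, 0.729% and 0.551% were called. The heart list's means did not overlap between the bleomycin groups, so these fits cannot separate that list from the inhibitor there. Array weights gave 14 for bleomycin with LNA-control, 4 for the inhibitor in PBS lungs and 14 for the interaction, beside 32.2%, 1.89% and 18.5% of all genes. Testing only genes above the median level gave 14 for bleomycin with the inhibitor, beside 23.9% of the genes tested. Without the 3 arrays low in Ucp1, an alternative chosen after seeing the data, bleomycin with the inhibitor gave 1, the inhibitor in bleomycin lungs 9 and the interaction 0. Of all genes 1.57%, 18.6% and 1.32% were then called. With the heart and brown fat lists as terms the inhibitor's change in bleomycin lungs reversed for Cox4i2 (-0.23), Ndufa4l2 (-0.18) and Cox6a2 (-0.012). Ndufab1 (0.51 to 0.71) and Cox6b2 (0.52 to 0.70) stayed called after bleomycin with LNA-control in all 31 alternatives run for them. The cause of these movements was not tested. With 3 or 5 arrays a group, a member's 95% interval reached a median of 0.16 to 0.26 to either side of its change.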

Other observations

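Ndufaf8, a complex I assembly factor listed under an older name and so outside the rule, fell after bleomycin with the inhibitor by 0.86 (adjusted p 0.014) and with the inhibitor in bleomycin lungs by 0.58 (adjusted p 0.022). Ndufaf5, Ndufaf6 and Ndufaf7 were not called in any comparison.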
